A study of Arabidopsis thaliana with 16 samples.

Results

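The regions described here are the stretches of the Arabidopsis thaliana genome where a peak of ENAP1 was called in wild-type seedlings both in air and in ethylene, and where no peak was called in the ein2 mutant under either gas. They were found by pooling the peaks of the 4 conditions on chromosomes 1 to 5, merging peaks that overlapped by 1 bp or more, and keeping each merged region with a peak of both Col-0 sets and of neither ein2 set. Of 8966 merged regions, 1237 met this rule, a share of 13.8%. They are 27.5% of the 4503 merged regions that had a peak of both Col-0 sets. The number depends on the sizes of the sets: with the 3252 peaks of lowest p from every set it was 281, with 213 (17.2%) of the 1237 among them, and with Col-0 peaks of a −log10 q of at least 20, 358. The regions were thus chosen by the presence and absence of called peaks in these same 4 sets, so the absence of ein2 peaks and the strength of the Col-0 peaks are descriptions of the choice and not results.

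The data are chromatin immunoprecipitation with sequencing (ChIP-seq) of ENAP1 from whole seedlings that were dark-grown for 3 days at 24 C and exposed for 4 hours to hydrocarbon-free air or to the same air with 10 ppm ethylene. The 4 conditions were wild-type Col-0 plants in air, Col-0 in ethylene, the mutant ein2 in air and ein2 in ethylene. Each had 2 ChIP samples, in which anti-green fluorescent protein antibody pulled down the complexes, and 2 inputs without antibody, 16 samples in all. The labels name neither the ein2 allele nor the construct or promoter of the tagged protein, and no group is a ChIP from plants without a tag. The study compared ENAP1 occupancy between the lines and gases, and these regions are where the comparison of the lines has a called peak on the wild-type side alone.

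Ethylene is perceived at the endoplasmic reticulum, and EIN2 is the membrane protein through which the signal leaves it: after perception, a part of EIN2 is released and enters the nucleus. ENAP1 is a nuclear protein that binds this part of EIN2 and binds histones, and both have been linked to histone acetylation at ethylene-responsive genes. Plants without EIN2 function lack the triple response, the short and thick growth of dark-grown seedlings in ethylene.

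The files give 1 peak set per condition and no value per replicate or read count. No replicate spread exists for any value below, no difference between the lines was tested, and the depth behind the sets is unknown. The Col-0 sets held 7852 peaks in air and 5137 in ethylene, kept down to a −log10 q of 13.4 and 10.8. The ein2 sets held 3252 and 4696, kept down to 10.9 and 6.57. The absence of a called peak is thus absence from a list with its own depth and limit, not absence of ENAP1. In whole seedlings, fewer cells with ENAP1 at a site and less ENAP1 per cell cannot be told apart. Fold enrichment below is the authors' ratio of ChIP signal to local background at a peak, and a percentile is the peak's rank by fold within its own set. Intervals are Wilson 95% intervals, which cover counting error only. Positions are those of TAIR10 in the peak files.

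Within the deposited Col-0 sets, the 1237 regions mostly had a low fold. The fold in Col-0 air ran from 1.74 to 6.90 with a median of 3.56, which is a median percentile of 23.3 in that set. In Col-0 ethylene the fold ran from 1.79 to 8.42 with a median of 3.35, a median percentile of 32.9. The 281 regions found with equal numbers of peaks had median percentiles of 52.6 and 62.6. Regions with a peak in all 4 sets, 2269 in number, had median percentiles of 82.6 in Col-0 air and 71.5 in Col-0 ethylene. Regions with both Col-0 sets and 1 ein2 set lay between, at 53.8 and 42.4 for the 587 with ein2 ethylene and at 53.2 and 54.7 for the 410 with ein2 air. The 1995 regions of Col-0 air alone had a median fold percentile of 29.95, above the 23.3 of the 1237, but by q value the order was the other way, at 19.8 against 41.7.

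The share of regions without an ein2 peak was lower in each higher decile of Col-0 air fold. Among the regions of both Col-0 sets, 84.2% of those in the lowest decile of the Col-0 air set by fold had no ein2 peak, 33.5% in the fifth decile and 2.32% in the ninth. In the highest decile it was 0 of 730, with an upper Wilson limit of 0.523% for counting error only. By fold in Col-0 ethylene the shares were 50.5%, 48.1% and 48.2% in the lowest 3 deciles, with overlapping intervals, and went down to 1.96% in the highest. As many as 230 of the 1237 regions nevertheless stood in the upper part of the Col-0 air set, at or above its median fold, 357 did so in Col-0 ethylene and 98 in both. At or above percentile 75 in both sets there were 9.

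**Figure D1:**
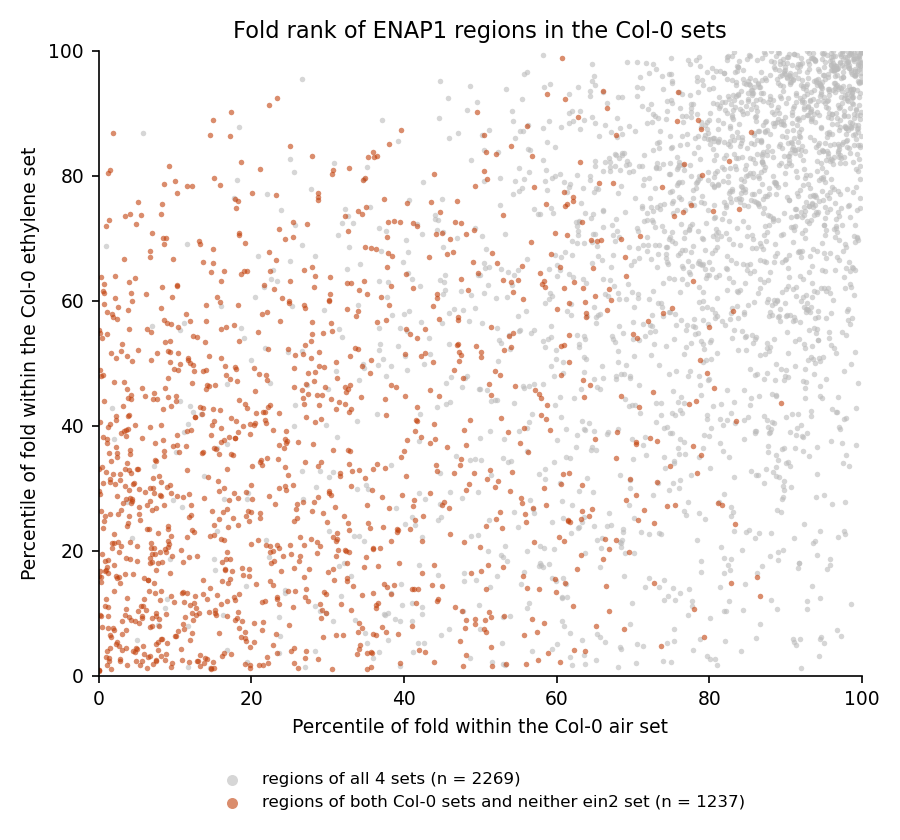
Each point is a merged region, placed by the percentile of its fold within the Col-0 air set (horizontal, 0 to 100) and within the Col-0 ethylene set (vertical, 0 to 100). The 1237 regions with no ein2 peak (orange) fill the lower left, with medians of 23.3 and 32.9, and the 2269 regions of all 4 sets (grey) the upper right, with medians of 82.6 and 71.5.

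**Figure D2:**
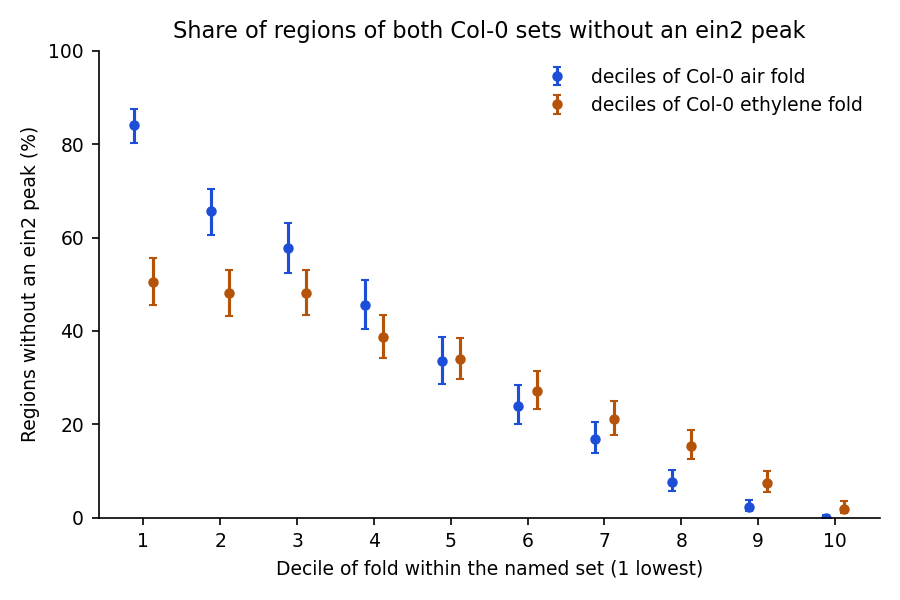
Points are the percentage of regions of both Col-0 sets that had no ein2 peak, by deciles of the fold within Col-0 air (blue) or Col-0 ethylene (orange), from 1, the lowest, to 10; bars are Wilson 95% intervals for counting error. The blue series goes from 84.2% to 0% and the orange one from 50.5% to 1.96%.

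The peaks of air and ethylene lay at the same place in most of these regions. The distance between the summits, the points of highest signal, had a median of 20 bp, and 1167 of the 1237 pairs (94.3%) were within 100 bp, against a median of 14 bp and 97.5% in the regions of all 4 sets. In 1224 regions there was 1 peak from each gas, and in 13 there were 3 peaks in all. The regions had a median width of 354 bp and ran from 157 to 7277 bp, against medians of 440 bp for all 4 sets and 271 bp for Col-0 air alone, and together they covered 510.548 kb. The order of the regions by fold was only loosely the same in both gases, with a Spearman rho of 0.21 over the 1237 regions and 0.45 over the 2269 of all 4 sets. These points share a genome sequence and a line, and rho is given as a description.

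They were spread over all 5 chromosomes. Chromosomes 1 to 5 held 305, 171, 279, 179 and 303, which were 13.2%, 12.03%, 15.3%, 13.6% and 14.5% of the merged regions there. The nearest ein2 peak lay at a median distance of 6710 bp, with quartiles of 2547 and 12837 bp, and 163 regions (13.2%) had one within 1000 bp. For the regions of Col-0 air alone the median was 5636 bp and the share within 1000 bp 14.1%.

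Where these regions sat in genes was not used to choose them. The Col-0 air summit was inside a protein-coding gene in 973 of 1237 regions, 78.7% (interval 76.3 to 80.9), close to the 80.3% of the regions of all 4 sets and above the 57.9% of Col-0 air alone. Over all merged regions it was 67.9%, with the summit of another set where Col-0 air had no peak. The summits also lay deeper in genes. Inside a gene and more than 300 bp from its nearer end were 308, or 24.9% (22.6 to 27.4) of all 1237 regions. The share was 14.2% for all 4 sets, 18.8% for both Col-0 sets with 1 ein2 set, 11.7% for Col-0 air alone and 15.7% for all merged regions. Of the inside summits only, these were 308 of 973, against 322 of 1822, 187 of 768, 234 of 1155 and 1411 of 6089, in the same order. By that count Col-0 air alone stood above all 4 sets. More than 600 bp inside were 139, or 11.2% of all 1237 regions, against 5.16%, 7.12%, 4.91% and 6.56%. The median distance of an inside summit to the nearer gene end was 166 bp, compared with 113 bp for all 4 sets and 124 bp for Col-0 air alone. Conversely, 68.6% of the summits were within 300 bp of a gene end, inside or outside, against 78.9% for all 4 sets, 73.4% for both Col-0 sets with 1 ein2 set, 67.9% for Col-0 air alone and 69.8% for all merged regions. The gene table gives no strand, so starts and ends of genes were not told apart.

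Fold moved with this position and is therefore set beside it. In the lowest 30% of the Col-0 air set by fold, the share of summits more than 300 bp inside a gene was taken again. It was 28.1% (interval 24.95 to 31.4) of the 741 regions without an ein2 peak. Among the 315 other regions of both Col-0 sets it was 21.6% (17.4 to 26.5). These intervals overlap, and the difference at low fold was not tested. Of 1000 regions of Col-0 air alone at this level, the share was 15.1%. Summits inside a gene at any depth numbered 586 of the 741, 249 of the 315 and 667 of the 1000. Above that level the shares were 20.2% (16.9 to 23.9) of 496 regions without an ein2 peak and 14.9% (13.7 to 16.3) of 2951 others of both Col-0 sets. Those intervals do not overlap. Gene length was similar, with medians of 2420.5 bp for genes of these regions and 2497.5 bp for genes of regions of all 4 sets, against 2078 bp for all protein-coding genes.

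**Figure D3:**
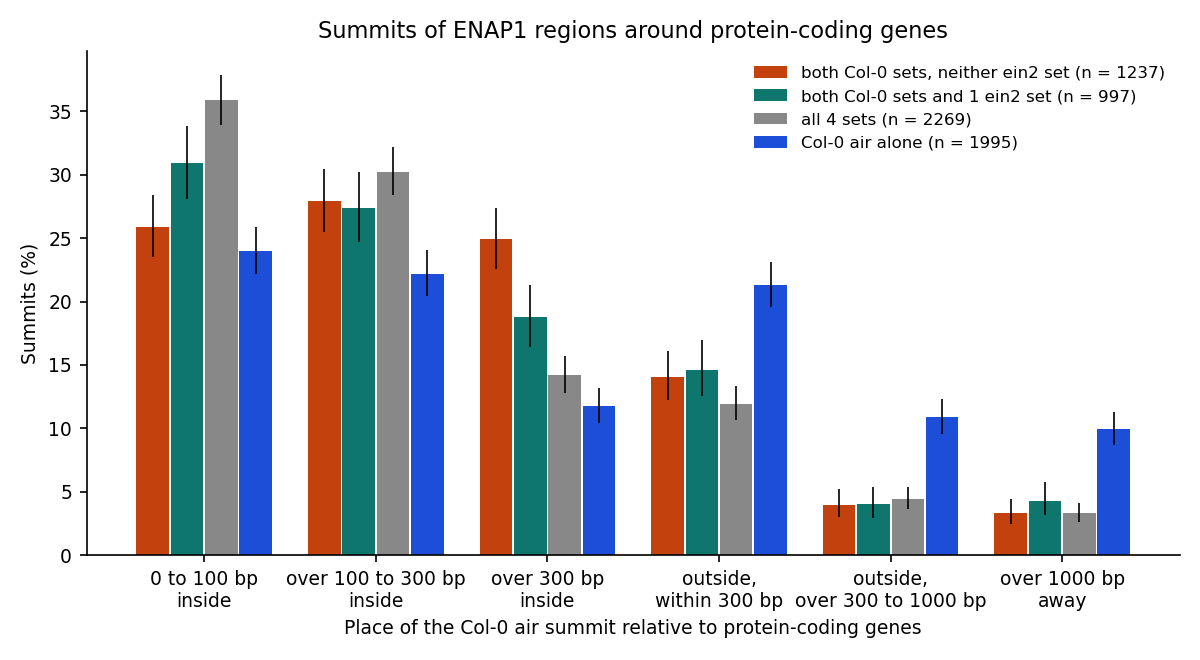
Bars give the percentage of Col-0 air summits in each class of place relative to protein-coding genes (horizontal) for 4 kinds of region, with Wilson 95% intervals for counting error as lines. In the class more than 300 bp inside a gene, regions without an ein2 peak (orange) stand at 24.9%, above the 18.8%, 14.2% and 11.7% of the others.

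Of the regions of highest fold in Col-0 air, the first lay 740 bp inside AT2G34350 (chromosome 2, 14493922 to 14494190), with a fold of 6.90 in air and 3.59 in ethylene. This gene had other regions in both ein2 sets, and the nearest ein2 peak was 357 bp away. Second was a region with no protein-coding gene within 1000 bp, on chromosome 1 at 29360874 to 29361201, with folds of 6.50 and 2.93. The third was 508 bp outside EXPA9 (AT5G02260), which encodes an expansin, a protein that loosens cell walls (chromosome 5, 462412 to 462758, folds of 6.45 and 3.00). Further down these 10 were AT1G17620 (6.36 and 5.57), AT3G44370 (6.18 and 4.68), AT4G39820 (6.13 and 3.53), the homeobox gene KNAT5 (6.11 and 3.17), the sphingoid base kinase gene LCBK1 (6.06 and 2.98) and AT3G55430 (6.03 and 5.17). EXPA9, KNAT5 and LCBK1 were low in the ethylene set, at percentiles 15.8, 24.3 and 14.9, while AT1G17620 stood at 87.1.

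Of the regions of highest fold in Col-0 ethylene, the first was 405 bp outside AT2G25760 (chromosome 2, 10989292 to 10989730). Its fold was 8.42 in ethylene, percentile 98.8, and 4.69 in air, percentile 60.7, and the nearest ein2 peak was 19882 bp away. Next came a region 993 bp inside NCED3 (AT3G14440), whose enzyme catalyses the committed step of abscisic acid synthesis under drought (chromosome 3, 4832323 to 4833265, folds of 4.95 in air and 6.50 in ethylene). MTM2 (AT5G04540), a myotubularin gene, followed with 5.51 and 6.45, and AT2G29660 with 4.63 and 6.40. The fifth spanned 1621 bp of DALL4 (AT1G06800), a lipase gene, at 2089980 to 2091600 of chromosome 1, with 3.56 in air and 6.26 in ethylene. AT3G07120, AT3G50340, AT3G19274 and SLD2 (AT2G46210), which encodes a sphingolipid desaturase, had ethylene folds of 6.24, 6.10, 6.02 and 5.92. The last of the 10 lay away from protein-coding genes on chromosome 3, at 16717184 to 16717889, with 3.38 in air and 5.92 in ethylene. DALL4 and AT3G50340 were in the lower part of the air set, at percentiles 23.3 and 22.4.

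The 9 regions at or above percentile 75 of both Col-0 sets lay at COP1, SUVR3, MTM2, UBL5, FRI, AT1G17620, AT3G55430, AT5G56020 and AT3G52460. COP1 (AT2G32950), the ubiquitin ligase that represses light development in darkness, had its summit 39 bp outside the gene (chromosome 2, 13977696 to 13978110), with folds of 5.70 in air and 5.63 in ethylene. The nearest ein2 peak was 17276 bp away. SUVR3 (AT3G03750, SDG20 in the gene table), a SET-domain gene of the histone methyltransferase family, had folds of 5.68 and 5.78 at 939616 to 940193 of chromosome 3. Its −log10 q of 79.6 in Col-0 air was the highest of the 1237 regions, and the nearest ein2 peak was 21623 bp away. FRI (AT4G00650), a regulator of flowering time, had folds of 5.62 and 4.72, and differed from COP1 and SUVR3 in having other regions in both ein2 sets, the nearest 513 bp away.

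At the limit of the rule, the members with the closest ein2 peaks were at FATB, SBP2, AT5G56980, EML3 and AT5G03700, with gaps of 44, 56, 68, 86 and 86 bp. All 5 of these genes had an ein2 region within 1000 bp. Just outside the rule, the shortest stretches that an ein2 peak shared with a Col-0 peak were 132 bp at E1 ALPHA, 135 bp at a pair of regions on chromosome 1 away from protein-coding genes and at AT5G57567, and 136 bp at SPHK1. In 4 of these 5 the stretch was the whole of a narrow ein2 peak. As a share of the shorter peak, a measure added after seeing the data, the overlap was smallest at BGLU17 (74.8%), GAE5 (77.3%), AT1G51550 (77.4%), HWS (79.4%) and AT1G52720 (82.1%), and 0 of the 3266 regions with both Col-0 sets and an ein2 set had less than 50%. In all 10 of these the ein2 peak was of the ethylene set.

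Absence of an overlapping ein2 peak was not always absence of ein2 peaks from the gene. A protein-coding gene held the summit or lay within 1000 bp of it for 1196 of the regions, and these were 1176 genes, 4.29% of the 27444 in the table. Counting any peak within the gene or 1000 bp of it, 944 of the 1176 genes (80.3%) had no ein2 region, and 232 (19.7%, interval 17.6 to 22.1) had one elsewhere at the gene. Of these, 131 had it in ein2 air and 203 in ein2 ethylene, 102 of them in both. Genes of regions of Col-0 air alone had another ein2 region in 22.9% of 1733 cases (20.99 to 24.9). By the same measure, the Col-0 sets reached 35.5% of all protein-coding genes in air and 26.2% in ethylene, and the ein2 sets 16.9% and 22.4%. Over all genes, 6501 had a region in both Col-0 sets, and 1512 of them (23.3%) had none in either ein2 set. At 80.3% of the 1176 genes, having no ein2 region was the usual state of a gene of these regions. Where it is given for single genes below, it is a description and not a trait of those genes.

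Across 11 lists of pathway genes, 163 genes in all, 11 genes (6.75%) had such a region, beside 4.29% of all protein-coding genes. Of the 61 listed genes with a region in both Col-0 sets, 14 had none in either ein2 set, a share near the 23.3% of all such genes, so nothing is read from it. The lists were rich in bound genes to begin with: 107 of the 163 had a region in Col-0 air, beside 35.5% of all genes.

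Of the listed ethylene genes none had such a region, which beside 4.29% of all genes is no result about lists of this size. Among the 16 signalling genes, the receptor genes ETR1 and ETR2, EIN2, the transcription factor gene EIN3, EIN5 and ETP2, 6 in all, had a region in both Col-0 sets: each of them also had a region in at least 1 ein2 set. Of the 9 ethylene-induced genes none had a region in both Col-0 sets. The jasmonate list (18 genes), the clock list (13) and the abscisic acid list (13) also held 0.

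The histone acetylation list held 3 of its 22 genes, beside 4.29% of all genes, and none of the 3 had an ein2 region anywhere at the gene. HAG3 (AT5G50320), the catalytic subunit of Elongator, had folds of 3.70 in air and 3.90 in ethylene at 20484692 to 20484936 of chromosome 5. HAC5 (AT3G12980), an acetyltransferase of the p300/CBP type, had 3.82 and 2.98 at 4146212 to 4146620 of chromosome 3. HDA5 (AT5G61060), a class II deacetylase, had 3.87 and 3.35 at 24570782 to 24571079 of chromosome 5. All 3 summits lay just inside the gene, 84 to 164 bp from its end, and all 3 were in the lower part of the Col-0 air set, at percentiles 28.0 to 34.1. At the gene level 13 of the 22 had a region in both Col-0 sets, and 6 of these had none in ein2, beside 23.3% of all such genes. By this measure a region can count for neighbouring genes too, and nothing is read from counts this small. None of the 3 regions met the rule with equal numbers of peaks per set.

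The light list held COP1, described above, and PIF5 (AT3G59060), a basic helix-loop-helix factor that promotes growth in the dark, out of 19. This count stands beside 4.29% of all genes, and nothing is read from it. The PIF5 region lay 168 bp outside the gene, with folds of 4.64 in air and 2.67 in ethylene. PIF5 differed from COP1 in having other regions in all 4 sets, at percentiles 84.7 and 77.4 in the Col-0 sets (air, ethylene) and 12.3 and 41.6 in the ein2 sets. Partners of COP1 in protein degradation, singled out after their values were seen, also had such a region and no ein2 region: COP10 (AT3G13550), a ubiquitin-conjugating enzyme variant, with 3.27 and 3.73, and DDB1B (AT4G21100), an adaptor of CUL4 ligases, with 2.78 and 2.79. The summits were 44 and 30 bp inside these genes. GATA2 (AT2G45050), a transcription factor that promotes light development and is degraded through COP1, had folds of 3.03 and 3.28.

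The counts of the hormone and cell wall lists that follow are 1 or 2 genes each, beside 4.29% of all genes, and nothing is read from them. Among growth hormones, gibberellin had 2 of 12 genes. RGL1 (AT1G66350) and RGL3 (AT5G17490) encode DELLA proteins, which hold back growth until gibberellin removes them. The RGL1 region at 24747983 to 24748503 of chromosome 1 had folds of 4.41 in air and 5.24 in ethylene. The RGL3 region at 5764131 to 5765081 of chromosome 5 had 3.27 and 4.28. Both were higher in rank in ethylene, at percentiles 83.5 and 66.2 against 52.1 and 13.7 in air, and neither gene had an ein2 region. The median of all 1237 regions was also higher in ethylene, at 32.9 against 23.3. Auxin had 2 of 20: the receptor gene TIR1 (AT3G62980), with 4.37 and 3.04 and no ein2 region, and the response factor gene ARF2 (AT5G62000), with 3.76 and 4.06 and another region in ein2 ethylene. Brassinosteroid had 1 of 11, DET2 (AT2G38050), which encodes a steroid reductase of brassinosteroid synthesis. Its region spanned 1035 bp, with folds of 3.68 in both gases. The cell wall list had 1 of 11, CSI1 (AT2G22125), which links cellulose synthase to microtubules, with 4.02 and 3.15. DET2 and CSI1 had no ein2 region, the state of 80.3% of all genes of such regions.

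Ethylene response factors and their relatives outside the lists were looked up after their values were seen. Only genes with such a region are named here. The rest of the family was not counted, so nothing is read from their number. EBP (AT3G16770), a factor of the hypoxia-related group, had folds of 3.60 in air and 3.30 in ethylene. The repressor genes ERF10 (AT1G03800) and ERF12 (AT1G28360) had 4.29 and 2.83, and 5.90 and 3.24. CRF8 (AT1G71130), a cytokinin response factor, had 2.64 and 3.05, and CBF4 (AT5G51990), a drought-related factor, 2.99 and 4.09. None of the 5 genes had an ein2 region, the state of 80.3% of all genes of such regions. None of the 5 regions met the rule with equal numbers of peaks per set. At the highest of the 4 set minima of −log10 q, only those of EBP and CBF4 did. ERF12 was highest among the 5 in the air set, at percentile 81.2, and CRF8 lowest, at 0.841.

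Gene families were counted whole, but were chosen because several members had such regions, so their counts describe that choice. This holds for every family below, and the share over all genes was 4.29%. Of 9 carotenoid cleavage dioxygenases, a family that includes enzymes of abscisic acid and of strigolactone synthesis, 5 had one: NCED2, NCED3, NCED9, CCD4 and CCD8. In all 5 the summit was well inside the gene, from 552 bp in NCED2 (AT4G18350) to 1517 bp in CCD8 (AT4G32810). NCED9 (AT1G78390), with folds of 3.32 in air and 4.98 in ethylene, was alone among the 5 in having no ein2 region. NCED3 had other regions in both ein2 sets, at percentiles 63.2 in air and 40.4 in ethylene, the nearest 631 bp from the region described. NCED2, CCD4 and CCD8 had one in ein2 air.

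Lipases related to DAD1, which releases the fatty acid precursor of jasmonate, had such a region in 3 of 7 genes, beside 4.29% of all genes. None of the 7 had any region in ein2, beside 16.9% of all genes with one in ein2 air and 22.4% in ein2 ethylene. Only 3 of the 7 had a region in both Col-0 sets, so nothing is read from this. DALL4, described above, DALL3 (AT2G30550) and DALL1 (AT4G16820) all had wide regions, of 1621, 1289 and 857 bp. DALL3, at 13015026 to 13016314 of chromosome 2, had folds of 5.04 in air and 5.51 in ethylene. DALL1, at 9468267 to 9469123 of chromosome 4, had 3.09 and 3.86, and the nearest ein2 peak was 30914 bp away. DALL5 and DAD1 had a region in Col-0 air alone.

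In indole glucosinolate synthesis, a defence pathway that shares its first step with camalexin, 3 of 11 genes had such a region and no ein2 region. CYP79B2 (AT4G39950) and CYP79B3 (AT2G22330) encode the enzymes of that step, which act on tryptophan, and MYB34 (AT5G60890) an activator of the pathway. CYP79B2 had folds of 4.08 in air and 4.13 in ethylene at 18526567 to 18527439 of chromosome 4. CYP79B3 had 4.05 and 3.42 at 9490265 to 9490538 of chromosome 2, and MYB34 2.59 and 3.88 at 24495519 to 24496001 of chromosome 5. All 3 summits were more than 300 bp inside, at 586, 1017 and 584 bp.

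Stress signalling genes made up further groups. Of 19 MAP kinase genes, 2 had such a region, MPK6 (AT2G43790) with folds of 2.88 and 3.55 and MPK3 (AT3G45640) with 3.36 and 3.02. These kinases act in immunity and also stabilise enzymes of ethylene synthesis. MPK6 had no ein2 region, and MPK3 had one in ein2 ethylene. MKK9 (AT1G73500), a kinase that activates both, had 3.34 and 3.58 in its region, at percentiles 15.9 and 42.5, and other regions at the gene in ein2, at percentiles 79.8 and 83.7 within the ein2 air and ethylene sets. Of the 9 kinase genes MAPKKK13 to MAPKKK21, MAPKKK18 and MAPKKK20 had one. The zinc-finger genes ZAT10, ZAT12 and AZF2, 3 of 8, encode repressors or regulators of stress genes. Their air folds were 3.67, 3.53 and 4.44, and none had an ein2 region. Of the U-box ubiquitin ligases, 3 of 7 had one, PUB18, PUB25 and PUB26, again with no ein2 region. PUB26 (AT1G49780) had the highest air fold of the 3, 5.41, against 3.23 in ethylene.

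Clade A protein phosphatases, which are co-receptors of abscisic acid, had 2 of 9, HAI1 and HAI2. HAI1 (AT5G59220) shows how much region and gene can differ. The region without an ein2 peak had folds of 2.74 and 3.38, 1160 bp inside the gene. The highest peak of each set within the gene or 1000 bp of it ranked at percentiles 97.5 and 98.7 in the Col-0 sets (air, ethylene). In the ein2 sets it ranked at 96.0 and 93.4. Whether these peaks form 1 region was not checked. Of 10 UGT71 glycosyltransferase genes 5 had such a region. UGT71C5 (AT1G07240), whose enzyme glucosylates abscisic acid, and UGT71B1 (AT3G21750) had other regions in both ein2 sets, whereas UGT71B8, UGT71C2 and UGT71C4 had none there.

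**Figure D4:**
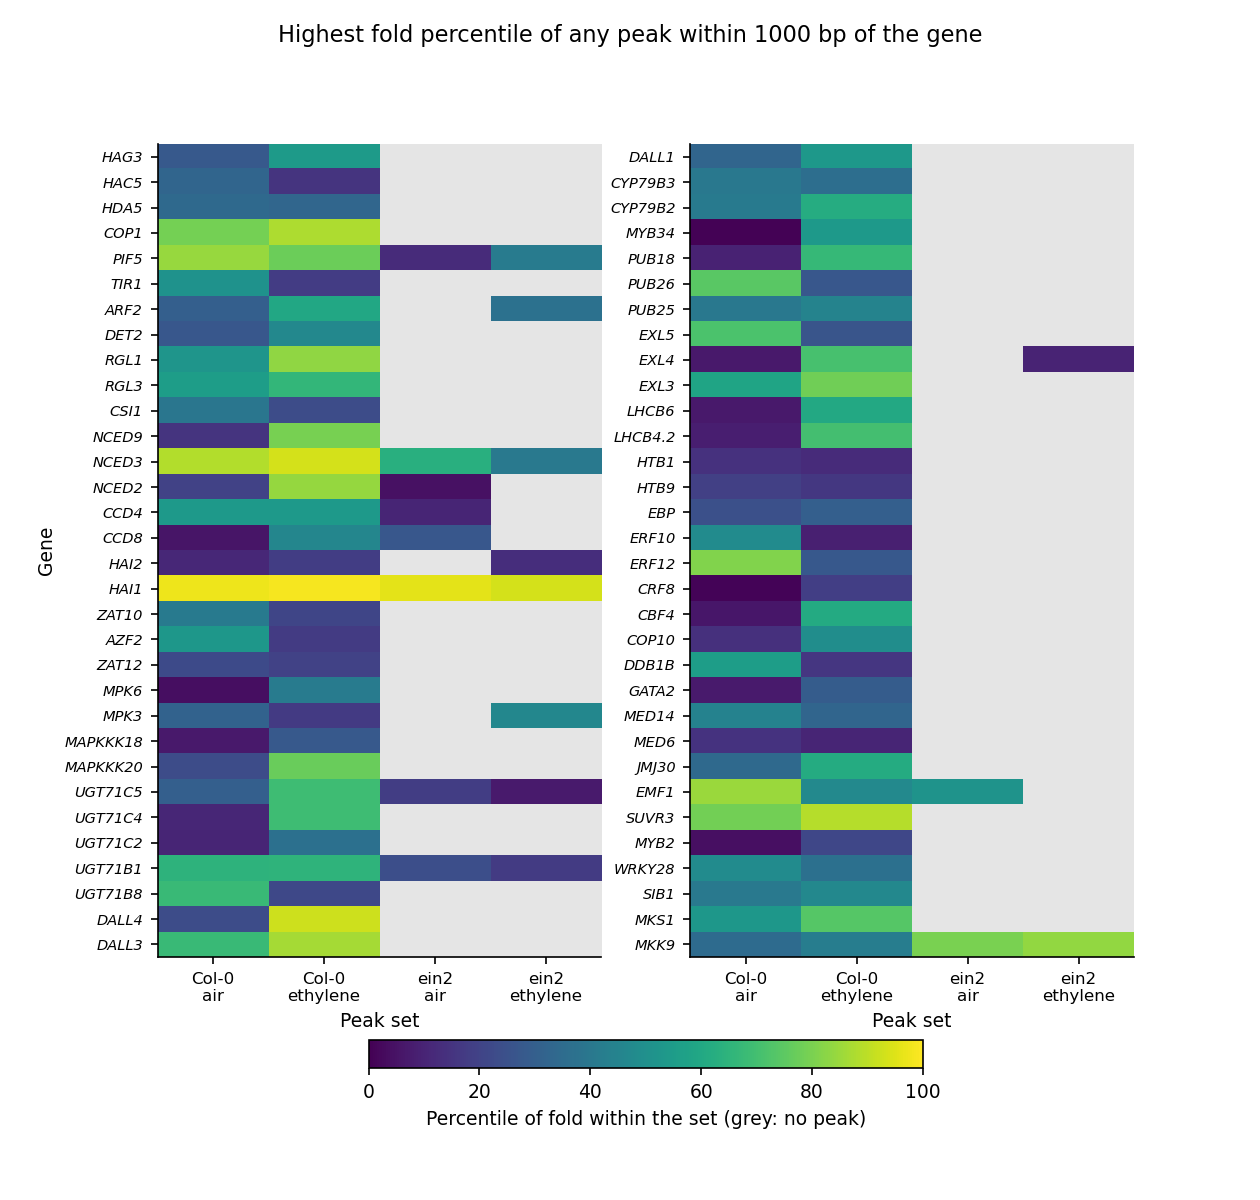
For each gene (rows), colour gives the highest fold percentile, 0 to 100 within the set, of any peak within the gene or 1000 bp of it in the 4 peak sets (columns); grey means no peak. The ein2 columns are grey for most genes, and coloured in at least 1 of them for 14 of those shown, among them HAI1 at 96.0 and 93.4 and MKK9 at 79.8 and 83.7.

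Regulators of chromatin and transcription outside the lists were also present. MED14 (AT3G04740) and MED6 (AT3G21350), subunits of Mediator, had folds of 4.17 and 3.35, and 3.30 and 2.86, with summits 21 and 30 bp inside the gene. JMJ30 (AT3G20810), a demethylase gene of the clock, had 3.87 and 4.11. EMF1 (AT5G11530), a Polycomb-related gene, had 2.78 and 3.69 in its region and another region in ein2 air. Among stress regulators, MKS1 (AT3G18690), a substrate of the kinase MPK4, had 4.44 and 4.62 over 948 bp, and WRKY28 (AT4G18170) 4.29 and 3.44. MED14, MED6, JMJ30, MKS1 and WRKY28 had no ein2 region. Those of MED14 and MED6 met the rule neither with equal numbers of peaks nor at the highest of the 4 set minima of −log10 q.

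There were 20 genes with 2 of these regions each and none with more. They include BXL1 (AT5G49360), which encodes a cell wall xylosidase, GH9C2 (AT1G64390), a glycosyl hydrolase gene, EXPA13 (AT3G03220), an expansin gene, IAA16 (AT3G04730), an auxin repressor gene, SCL8 (AT5G52510) of the GRAS family, HB23 (AT5G39760) and PUB18 (AT1G10560). In IAA16 both lay inside the gene, at 1289531 to 1289934 and 1290457 to 1290877 of chromosome 3, with air folds of 3.72 and 3.41. IAA16 and SCL8 had other regions in both ein2 sets, BXL1 and HB23 in ein2 ethylene, and GH9C2, EXPA13 and PUB18 in neither. AT3G06470 and AT5G03140 each joined a stronger region to a weaker one, with ethylene folds of 4.66 and 3.51 and of 5.03 and 3.21.

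The widest of the 1237 regions covered 7277 bp of chromosome 2, from 3494897 to 3502173 at AT2G07739, with folds of 1.80 in air and 1.79 in ethylene, among the weakest of either set. Its summits in air and ethylene lay 6035 bp apart, the largest distance of any of these regions. After DALL4, the next widest were at PG1 (AT1G60390), 1541 bp with folds of 2.87 and 3.66, ASPG1 (AT3G18490), an aspartic protease gene, 1412 bp with 3.71 and 3.36, and BXL1, 1346 bp with 3.64 and 3.24.

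No protein-coding gene lay within 1000 bp of the summit in 41 regions (3.31%). At the summit of 22 no gene of any kind was annotated, 9 lay in a pseudogene and 6 in a long non-coding RNA gene. For 17 nothing was annotated within 1000 bp. The strongest in air was the region on chromosome 1 at 29360874 to 29361201 described above, with a fold of 6.50. Next in air was a region in the long non-coding RNA gene AT3G29644 (chromosome 3, 11501195 to 11501474), with folds of 6.09 in air and 4.01 in ethylene. The pseudogene AT3G10100 held 3 of these regions in a row on chromosome 3, at 3111538 to 3112343, 3112577 to 3113586 and 3113790 to 3114513. Their folds were 3.16, 2.70 and 3.99 in air and 3.41, 5.03 and 5.39 in ethylene.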

How the data were processed

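The submitters' processing notes name BWA, MACS2 2.1.0.20150603 and the TAIR10 build. Filters and the calling limit are not stated in the sources used here. The authors deposited peak lists with each peak's fold enrichment, a ratio at the summit. Per the deposited files, each peak also has −log10 p and −log10 q values. Both ChIP samples of a condition name 1 list, so whether replicates were pooled is unknown. Peak names are numbered up to 18877 and 12046 in the Col-0 air and ethylene lists and 8191 and 10236 in those of ein2, and the lists hold 41.6%, 42.6%, 39.7% and 45.9% of these numbers: they are subsets of longer lists, which affects every absence. Of 6 lists, 4 entered; no label names the other 2, and their columns were left out.

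Merging, ranking and counting were done in Python 3.11.15 with pandas 2.3.3 and scipy 1.17.1, and checked on simulated peaks. Fold was ranked within each set. Folds and ranks in air and ethylene are printed side by side as descriptions, and no difference between sets was tested. Genes and loci came from a RefSeq table of TAIR10.1, whose coordinates are not printed; shifting summits by 500 or 2000 bp lowered the share within 300 bp of a gene end from 68.6% to 25.8 to 29.4%. The gene of a region is the protein-coding gene holding its Col-0 air summit or the nearest within 1000 bp. Named were genes of the 10 strongest regions per Col-0 set, the 5 widest, genes with 2 regions, listed genes and the cases at the limit. Members, lists and tests were chosen with earlier results of these data known. The 12 families (120 genes), 18 further genes and the 9 regions at or above percentile 75 in both Col-0 sets were added after their values were seen. The table has no strand and no sequence was used, so the planned motif search was not run.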

Additional observations from a re-analysis of the deposited data

How the results depend on the processing

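The number of regions depended on the limits of the sets. With the same 3252 peaks of lowest p from every set it was 281 instead of 1237; 213 of the 1237 were among them. At the highest of the 4 minima of −log10 q it was 1467, and 920 of the 1237 were among them. The minimum of 20 in both Col-0 sets, chosen after seeing the data, left 358. At equal numbers the share of summits inside a gene was 85.1% instead of 78.7%, the share within 300 bp of a gene end 63.7% instead of 68.6%, the share of genes with another ein2 region 17.4% instead of 19.7%, and the median percentiles 52.6 in Col-0 air and 62.6 in Col-0 ethylene instead of 23.3 and 32.9. At the common minimum the inside share was 81.5%, the share of genes with an ein2 region 11.3% and the percentiles 32.9 and 45.8. With the minimum of 20 these were 85.5%, 22.5%, 34.6 and 61.5, with 62.0% within 300 bp of a gene end. Requiring no ein2 peak within 300 bp gave 16.8% of genes with an ein2 region. Gene spans with 0 or 500 bp on both sides gave 9.95% and 15.99%. The cause of these shifts was not tested. The limits on peak number and q value remove ein2 or weak Col-0 peaks, and the 300 bp setting removes regions. The gene spans change only the window in which ein2 peaks are counted. The other 26 values moved by less than their counting interval or, for counts, by less than 1.5 times; leaving out the widest region was among these and was also chosen after seeing the data. The share of summits more than 300 bp inside a gene was 24.1% to 33.2% under 5 of the alternatives. The other kinds of region were not recounted under them, so the difference from those was not checked there. Of 106 named genes, 81 kept such a region at the common minimum and 25 at equal numbers, among them COP1, SUVR3, DET2, RGL1, NCED3, DALL3, DALL4, CYP79B2 and MKS1. Neither setting kept one at AT2G34350, KNAT5, LCBK1, EXPA13, PIF5, CSI1, DDB1B, MED14, MED6, AZF2, ZAT12 or PUB26. The same held for HAI2, MAPKKK18, MKK9, UGT71C4, HTB1, HTB9, ERF10, ERF12 and CRF8, among others. No paired analysis was possible because each condition has 1 peak set and no value per replicate; leaving out a replicate was not possible for the same reason.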

Other observations

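Photosynthesis and chromatin structure genes not described above also had regions of this kind. Of 19 light-harvesting antenna genes, LHCB6 (AT1G15820) and LHCB4.2 (AT3G08940), which encode minor antenna proteins of photosystem II, had folds of 2.79 and 3.08 in Col-0 air and 4.07 and 4.43 in Col-0 ethylene. Both ranked low in air, at percentiles 2.2 and 8.42, and higher in ethylene, at 60.4 and 70.0. The median of all 1237 regions was also higher in ethylene, at 32.9 against 23.3. Of 5 histone H2B genes, HTB1 (AT1G07790) and HTB9 (AT3G45980) had folds of 3.28 and 3.43 in air and 2.91 and 3.01 in ethylene. None of these 4 genes had an ein2 region, the state of 80.3% of all genes of such regions. Of 7 EXORDIUM-LIKE genes, whose products are cell wall proteins linked to growth, AT2G17230, AT5G09440 and AT5G51550 had one, and AT5G09440 also had another region in ein2 ethylene. These families were chosen after seeing the data, so their counts support nothing.

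The 213 regions that met the rule in the deposited lists, at equal numbers and at the common minimum of −log10 q lay at 205 genes, of which 162 had no ein2 region. Their median percentiles were 50.9 in Col-0 air and 62.1 in Col-0 ethylene, and 63 of them (29.6%) had a summit more than 300 bp inside a gene.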
